A study of Mus musculus with 36 samples.

Results

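Ccl2, Ccl7 and Ccl12 are the mouse monocyte chemoattractant proteins MCP-1, MCP-3 and MCP-5, and they were chosen by name from the annotation of each deposited table. All 3 were found as single rows among 15385 genes in microglia and among 14551 genes in astrocytes. RNA was sequenced from 24 libraries of microglia (6 treatments, 4 replicates each) and 12 libraries of astrocytes (4 treatments, 3 replicates each), treated in culture for 4 h. The cells came from brains of C57BL/6 mouse pups aged 2 to 4 days, grown as mixed glia for 12 days, in every group. Microglia were selected on CD11b, and astrocytes were then positively selected from the fraction without microglia. Brains were pooled, so a library is not 1 animal. The control groups received the solvent DMSO or Nec-1s alone. Nec-1s (N) blocks the kinase activity of RIPK1. T/S/Z was TNF with a Smac mimetic (S) and the caspase inhibitor zVAD (Z), a treatment used to start necroptosis, and T/S/Z/N was the same with Nec-1s. Microglia alone also received T/5z, TNF with the TAK1 inhibitor 5z-7, used to start RIPK1-dependent apoptosis, and T/5z/N. Replicates were, by the general statement of the study's methods, cells of separate litters. Microglial and astrocyte libraries were made by different providers and normalized separately, so cell type and provider cannot be told apart and no test was made across the tables.

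CC chemokines are small secreted proteins that guide leukocytes along a gradient. Ccl2 is the main ligand of Ccr2, the receptor that lets inflammatory monocytes leave the marrow and enter inflamed tissue, and Ccl7 and Ccl12 bind the same receptor. In the brain, glia are a known source of these chemokines, and transcription of Ccl2 is a textbook response to TNF through NF-kB.

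The genes lie in a cluster on chromosome 11 of the mouse build GRCm38, all on the plus strand. Ccl2 (ENSMUSG00000035385) spans chr11:82035571-82037453, Ccl7 (ENSMUSG00000035373) spans chr11:82045712-82047525 and Ccl12 (ENSMUSG00000035352) spans chr11:82101845-82103400. In GENCODE M21, 8258 bases separate Ccl2 from Ccl7 and 54319 bases separate Ccl7 from Ccl12, and each has 3 exons. The first coding exons are shown because they hold the start of the secretion signal, where the family members are easy to compare. Capitals mark the 40 bases that are the same in all 3 genes in an alignment of the exons, and the exons lie at chr11:82035662-82035737, chr11:82045784-82045859 and chr11:82101900-82101972.
Ccl2: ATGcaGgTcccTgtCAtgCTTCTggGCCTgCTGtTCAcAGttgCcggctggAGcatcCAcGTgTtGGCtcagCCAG
Ccl7: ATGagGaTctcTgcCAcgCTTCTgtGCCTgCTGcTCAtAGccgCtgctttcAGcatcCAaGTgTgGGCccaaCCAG
Ccl12: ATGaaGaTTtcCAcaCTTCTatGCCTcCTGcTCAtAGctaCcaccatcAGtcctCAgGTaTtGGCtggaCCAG
Over the aligned coding bases, identity was 68.0% between Ccl2 and Ccl7, 67.6% between Ccl2 and Ccl12 and 68.1% between Ccl7 and Ccl12. The longest run of bases shared by any 2 of the transcripts was 23, between Ccl2 and Ccl7.

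The promoter of Ccl12 is shown because Ccl12 was the member whose response to Nec-1s differed in direction between the tables. It holds the 250 bases before the RefSeq start, chr11:82101595-82101844 on the plus strand of GRCm38.p6. The promoter of Ccl8, a chemokine gene that follows Ccl12 on the chromosome, which was among the genes most like Ccl12 in astrocytes, is shown for comparison (chr11:82114935-82115184, plus strand). Capitals mark matches to the letters searched.
Ccl12: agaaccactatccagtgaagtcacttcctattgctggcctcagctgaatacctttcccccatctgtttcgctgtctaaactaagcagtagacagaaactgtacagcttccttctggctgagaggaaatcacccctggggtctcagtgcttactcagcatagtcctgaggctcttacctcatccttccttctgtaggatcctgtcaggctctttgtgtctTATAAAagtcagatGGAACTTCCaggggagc
Ccl8: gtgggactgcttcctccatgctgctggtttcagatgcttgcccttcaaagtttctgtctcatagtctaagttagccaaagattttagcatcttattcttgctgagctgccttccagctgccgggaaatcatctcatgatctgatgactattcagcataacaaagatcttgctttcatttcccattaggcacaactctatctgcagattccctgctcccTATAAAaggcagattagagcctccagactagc
Letter patterns for NF-kB, AP-1, the TATA box and Sp1 were searched on both strands from 250 bases before to 50 bases after the start. Ccl12 held 1 match to GGNNNTTCC, a short form of the NF-kB site, from -17 to -9, where it matches on both strands. Of all 32851 promoters of this length, 18.5% held that pattern. The TATA box TATAAA lay from -31 to -26 in Ccl12 and from -32 to -27 in Ccl8, and 13.6% of promoters held it. Neither promoter held TGANTCA (AP-1, in 7.81% of promoters) or GGGCGG (Sp1, in 35.7%). A match describes letters in this window and does not show binding.

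Values are deposited log2(FPKM + 1), where FPKM is fragments per kilobase of exon relative to all mapped fragments, scaled by the authors to a common 75th percentile. Each level below is on this scale unless FPKM is named. In the astrocyte table and in microglial replicate 4, low values fell in steps that show what 1 read was worth. The DMSO library of microglial replicate 4 thus held about 20.9 reads of Ccl2, 12.0 of Ccl7 and 5.98 of Ccl12, and for 6 reads the exact Poisson 95% interval was 2.20 to 13.1. Astrocyte T/S/Z libraries held an estimated 85179 to 90698 reads of Ccl2 but 27.0 to 36.3 of Ccl12. Both genes have 2 listed transcripts in astrocytes, whereas the steps came from genes with 1, so these counts are rougher. Intervals cover counting error only. In microglial replicates 1 to 3, gene means had been set equal to those of replicate 4, which leaves some values below 0, so low levels there are relative. Cell type markers, as sums, were higher in the labelled cell type. The 17 microglia markers summed to between 15635 and 19531 FPKM in microglia, and the 16 of them listed in astrocytes summed to between 93.7 and 156 FPKM there. The 12 astrocyte markers summed to between 3040 and 3557 FPKM in astrocytes, and the 11 listed in microglia summed to between 5.64 and 24.7 FPKM. Single markers varied more. With DMSO, astrocytes held a median of 0.868% of the microglial FPKM over 16 microglia markers, but 43.0% for Tmem119 and 19.3% for P2ry12. Siglech stood at 0.080 FPKM in microglia with DMSO.

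In microglia, TNF with either partner raised all 3 chemokines, and the mean rise was larger for Ccl2 and Ccl7 than for Ccl12. Ccl2 levels in replicates 1 to 4 were 0.25, 0.79, 1.11 and 1.16 with DMSO, 5.94, 6.18, 5.38 and 4.67 with T/5z, and 5.62, 5.38, 6.08 and 7.15 with T/S/Z. Every stimulated library lay above every DMSO library. Ccl2 rose by 4.72 (SE 0.33, limma adjusted p = 2.56e-05) with T/5z and by 5.23 (SE 0.20, limma adjusted p = 5.35e-07) with T/S/Z, higher in 4 of 4 replicates each. A call required an adjusted p under 0.05 and a fold over 1.5, and 11.1% of the 10524 tested genes were called higher with T/5z. The share was 12.2% for T/S/Z.

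Ccl7, which also binds Ccr1 and Ccr3, was close to the detection limit without stimulus. Its levels with DMSO were -0.43, -0.20, 0.50 and 0.78. They were 4.35, 4.55, 3.40 and 2.59 with T/5z and 4.50, 4.30, 5.20 and 6.20 with T/S/Z, with no overlap with DMSO. The rise was 3.56 (SE 0.49, limma adjusted p = 6.27e-04) with T/5z and 4.89 (SE 0.14, limma adjusted p = 1.85e-07) with T/S/Z. Replicate 4 was the lowest T/5z library and the highest T/S/Z library for both Ccl2 and Ccl7, on levels whose replicate means had been set equal.

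Ccl12, a Ccr2 ligand found in mice and not in humans, moved less. Its levels were 0.80, 0.97, 1.11 and 0.62 with DMSO, 2.12, 2.07, 2.67 and 2.49 with T/5z, and 3.10, 2.59, 3.47 and 3.37 with T/S/Z. Again no stimulated library overlapped DMSO. Ccl12 rose by 1.46 (SE 0.13, limma adjusted p = 7.71e-05) with T/5z and by 2.26 (SE 0.16, limma adjusted p = 1.24e-05) with T/S/Z. As FPKM at the group mean, T/S/Z took Ccl2 from 0.775 to 65.6, Ccl7 from 0.119 to 32.1 and Ccl12 from 0.833 to 7.77.

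**Figure D1:**
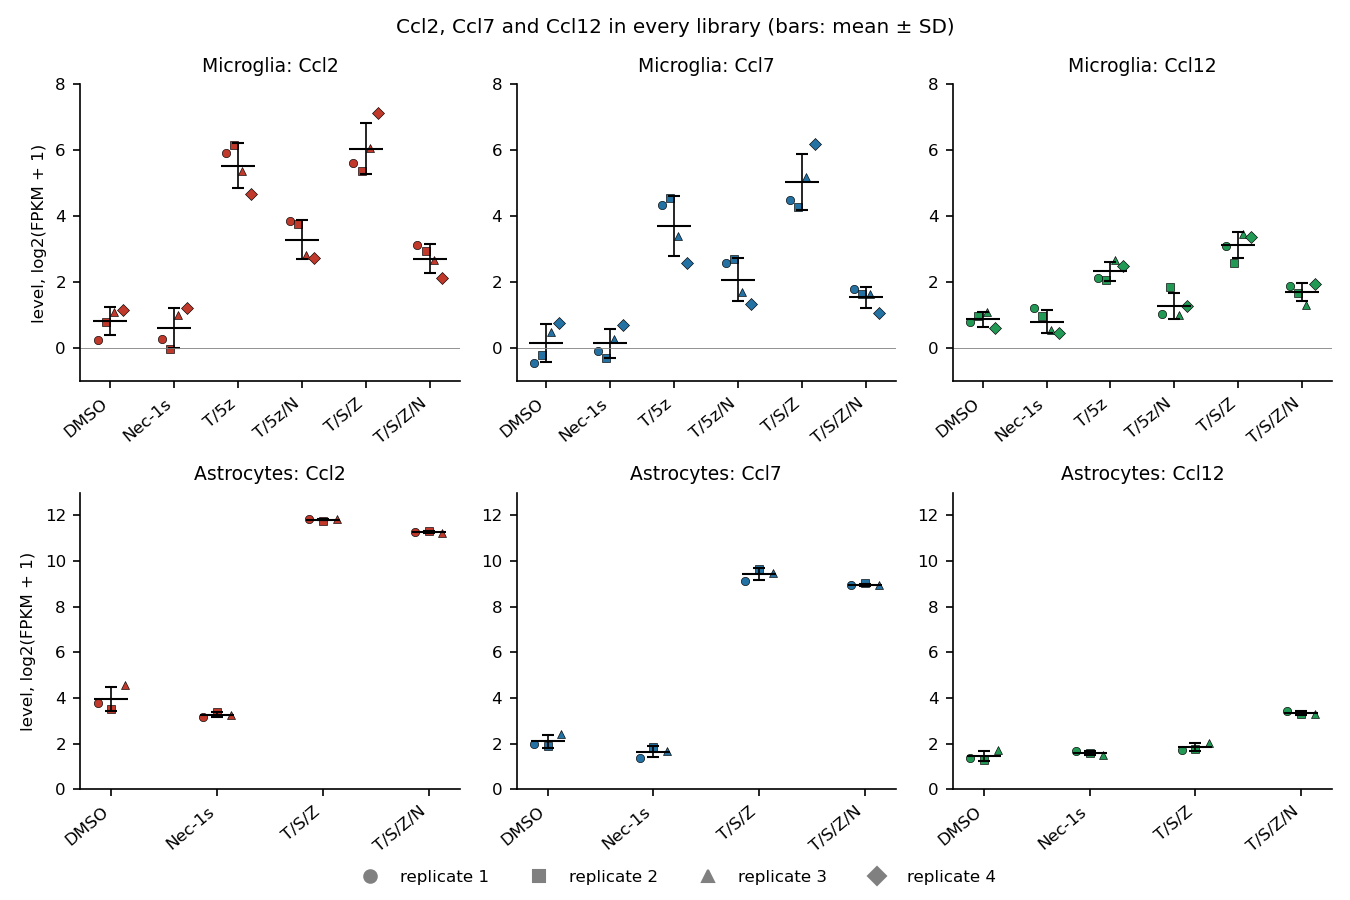
Levels of Ccl2, Ccl7 and Ccl12 as log2(FPKM + 1) in every library, microglia above and astrocytes below, with symbols for replicates and bars for mean ± SD (4 replicates in microglia, 3 in astrocytes). Ccl2 and Ccl7 are high with each stimulus in both cell types, whereas astrocyte Ccl12 stands out only with T/S/Z/N, at 3.30 to 3.45.

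Nec-1s alone left all 3 without a call in microglia. Ccl2 levels with Nec-1s were 0.27, -0.03, 1.00 and 1.24, and the differences from DMSO were -0.21 for Ccl2, -0.01 for Ccl7 and -0.07 for Ccl12. Their 95% confidence intervals were -0.55 to 0.13, -0.26 to 0.23 and -0.39 to 0.26. In limma, 0.00% of genes were called in either direction, while 892 genes had an unadjusted p under 0.05.

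With Nec-1s added to a stimulus, all 3 chemokines fell in microglia. After T/5z/N, Ccl2 stood at 3.86, 3.78, 2.83 and 2.73, below every T/5z library, a difference of -2.24 (SE 0.094, limma adjusted p = 1.84e-06). Ccl7 stood at 2.58, 2.71, 1.70 and 1.36, which overlapped the lowest T/5z library, but within replicates it was lower in 4 of 4, with a difference of -1.64 (SE 0.098, limma adjusted p = 9.23e-06). Ccl12 stood at 1.05, 1.86, 1.00 and 1.27, and its difference of -1.04 (SE 0.20, limma adjusted p = 0.0030) ranged from -1.67 to -0.21 between replicates. Here 4.52% of genes were called lower. Ccl12 lost its call with ordinary per-gene variance (adjusted p = 0.096) and with 5 added before the log, where the difference was -0.48.

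The mean falls were larger with T/S/Z/N, but a test of that difference, given below, made a call for Ccl7 alone, which several alternatives lost. Ccl2 stood at 3.12, 2.96, 2.66 and 2.12, Ccl7 at 1.81, 1.65, 1.64 and 1.08, and Ccl12 at 1.88, 1.67, 1.32 and 1.95. None of these libraries overlapped T/S/Z. The differences from T/S/Z were -3.34 (SE 0.38, limma adjusted p = 2.62e-04) for Ccl2, -3.50 (SE 0.36, limma adjusted p = 1.70e-04) for Ccl7 and -1.42 (SE 0.17, limma adjusted p = 3.50e-04) for Ccl12, lower in 4 of 4 replicates each. In this comparison 6.72% of genes were called lower.

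**Figure D2:**
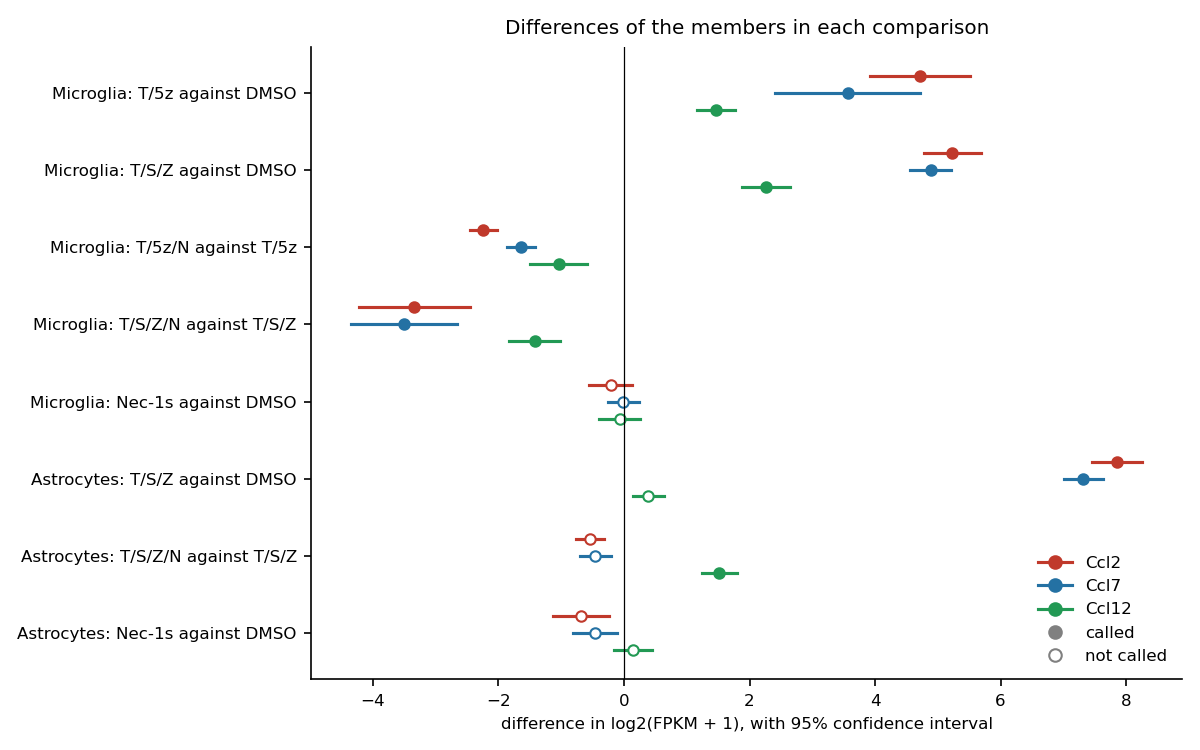
Differences in log2(FPKM + 1) for the members in 8 comparisons, with 95% confidence intervals from limma and filled points where the gene was called. Adding Nec-1s to T/S/Z moved Ccl12 by -1.42 in microglia and by 1.52 in astrocytes.

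Nec-1s did not return Ccl2 and Ccl7 to the DMSO level. With T/5z/N, Ccl2 remained 2.47 (SE 0.31, limma adjusted p = 3.56e-04) and Ccl7 1.92 (SE 0.38, limma adjusted p = 0.0044) above DMSO, where 6.16% of genes were called higher. Ccl12 differed by 0.42 (95% confidence interval 0.061 to 0.78, limma adjusted p = 0.063) and was not called, but it was called without replicate 3 (0.60, adjusted p = 0.019). With T/S/Z/N, Ccl2 remained 1.89 (SE 0.27), Ccl7 1.38 (SE 0.28) and Ccl12 0.83 (SE 0.17) above DMSO, the largest limma adjusted p being 0.0056, and 6.20% of genes were called higher. With ordinary per-gene variance, none of these 5 differences passed (adjusted p between 0.057 and 0.12). With 5 added before the log, Ccl7 and Ccl12 in T/S/Z/N against DMSO were 0.43 and 0.32 and below the fold limit.

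The share of each rise that Nec-1s took back was computed within replicates as the difference between stimulus and stimulus with Nec-1s, divided by the rise over DMSO. After T/5z it was 49.0% ± 10.5 (SD, n = 4) for Ccl2, 50.6% ± 15.1 for Ccl7 and 68.1% ± 36.8 for Ccl12 on the log2 scale. After T/S/Z it was 63.0% ± 16.8 for Ccl2, 70.9% ± 18.2 for Ccl7 and 63.0% ± 18.8 for Ccl12. The members overlapped within their SDs. In linear FPKM the mean shares were larger for all 3. After T/5z they were 82.4% ± 4.05 for Ccl2, 77.1% ± 3.43 for Ccl7 and 73.8% ± 33.7 for Ccl12. For T/S/Z they were 90.3% ± 6.91, 92.5% ± 5.87 and 77.7% ± 12.4 in the same order.

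**Figure D3:**
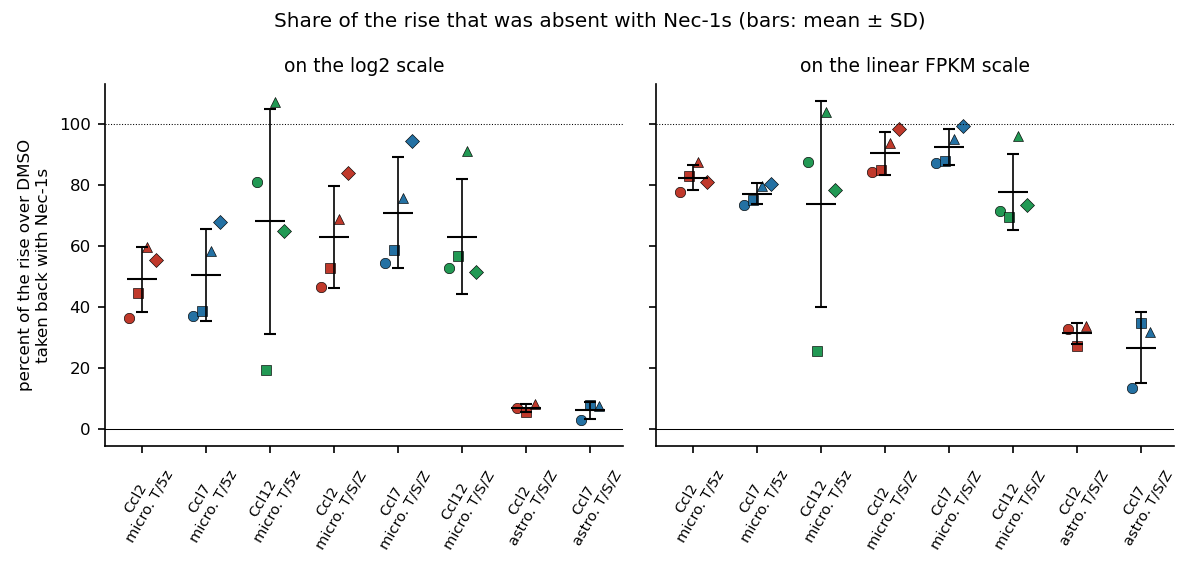
Percent of the rise over DMSO that was absent when Nec-1s was added, per replicate (symbols) with mean ± SD, computed on log2 values and on linear FPKM. Microglial means lie between 49.0% and 70.9% on the log2 scale and astrocyte means at 6.93% for Ccl2 and 6.18% for Ccl7, with astrocyte Ccl12 left out because it rose with Nec-1s.

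The stimuli were then compared with each other in microglia. Ccl12 was higher with T/S/Z than with T/5z by 0.79 (SE 0.088, limma adjusted p = 5.06e-04) in 4 of 4 replicates, where 5.42% of genes were called higher, but the difference was 0.50 and below the fold limit with 5 added before the log. Ccl2 differed by 0.52 (SE 0.47, 95% confidence interval -0.59 to 1.62, adjusted p = 0.42). Within replicates 1 to 4 the Ccl2 differences were -0.31, -0.80, 0.70 and 2.47. Ccl7 differed by 1.33 (SE 0.57, limma adjusted p = 0.10) and passed when replicate 2 was left out (1.85, adjusted p = 0.045).

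With Nec-1s present, T/S/Z/N minus T/5z/N was -0.58 for Ccl2 (limma adjusted p = 0.0037) and -0.54 for Ccl7 (limma adjusted p = 0.029), both lower in 4 of 4 replicates but below the fold limit. It was 0.41 for Ccl12 (limma adjusted p = 0.081). Of all genes, 3.38% were called in either direction. Leaving out a replicate moved these across the limit, with Ccl2 at -0.72 and Ccl7 at -0.70 without replicate 3, Ccl7 at -0.63 without replicate 4 and Ccl12 at 0.61 without replicate 2.

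The test of whether Nec-1s acted unequally after the stimuli gave a call for Ccl7 alone of the members. The fall of Ccl7 was 1.87 smaller after T/5z than after T/S/Z (SE 0.64, limma adjusted p = 0.046), in the same direction in 4 of 4 replicates, where 3.77% of genes were called in that direction. Without replicate 4 the difference was 1.19 (adjusted p = 0.096), without replicate 1 it was 2.18 (adjusted p = 0.068) and without replicate 3 it was 1.87 (adjusted p = 0.14). The difference was 1.10 for Ccl2 (adjusted p = 0.16) and 0.38 for Ccl12 (adjusted p = 0.40). For Ccl2 it was 0.43, 0.02, 0.86 and 3.08 in replicates 1 to 4.

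**Figure D4:**
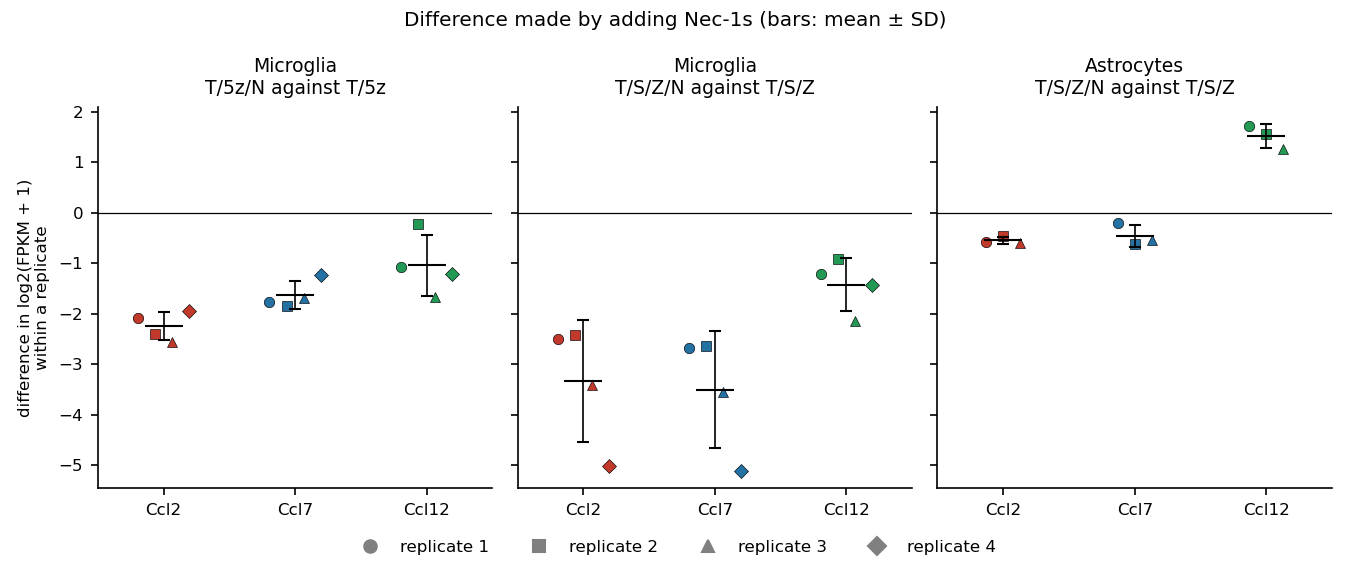
Difference in log2(FPKM + 1) made by adding Nec-1s, within each replicate (symbols) with mean ± SD. Every microglial point lies below 0, and the astrocyte points lie between -0.61 and -0.21 for Ccl2 and Ccl7 and between 1.26 and 1.73 for Ccl12.

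Markers of astrocytes moved with Ccl2 and Ccl7 in the microglial libraries. The 11 listed astrocyte markers summed to between 8.09 and 10.0 FPKM with DMSO, between 13.4 and 24.7 with T/5z, between 14.7 and 21.95 with T/S/Z, between 8.99 and 9.83 with T/5z/N and between 5.64 and 6.74 with T/S/Z/N. Of the 7 tested, 4 were called higher with each stimulus and the same number were called lower with Nec-1s after each. Among the tested markers, Aqp4, Slc1a3 and Gja1 averaged 0.566, 0.776 and 0.404 FPKM with DMSO, below the level the filter asks for. Such genes could enter through stimulated libraries, so the filter favoured calls in these directions. The shares over all genes were 11.1% and 12.2% higher for T/5z and T/S/Z, and 4.52% and 6.72% lower for Nec-1s. Replicate 4, the lowest T/5z library for Ccl2 and Ccl7, was also the lowest for these markers at 13.4 FPKM. As the highest T/S/Z library, it was also the highest for the markers at 21.95 FPKM. Gene means of the microglial replicates had been set equal, so these ranks are of relative levels. A low value in a treatment then goes with higher values in other treatments of that replicate. Relative to the astrocyte table, the median of the 11 markers in microglia was 1.17% (range 0.311% to 3.18%) with T/S/Z and 0.290% (range 0.0743% to 2.30%) with T/S/Z/N. Ccl2 stood at 2.06% and 0.235% of its astrocyte FPKM in these groups and Ccl7 at 5.36% and 0.394%. Ccl2 was inside the range of the markers in both groups, and Ccl7 above it with T/S/Z and inside it with T/S/Z/N. The cell types were normalized separately, and the exon length of Ccl2 was 813 bases in microglia and 1138 in astrocytes. Such ratios are thus not on a common scale. Without stimulus the group means gave 5.43% for Ccl2 and 5.52% for Ccl7 with DMSO, where the markers ranged from 0.114% to 2.20%, and 7.33% and 7.03% with Nec-1s alone, where they ranged from 0.115% to 2.10%. These ratios are imprecise for the members and for the markers, since both rest on low microglial values. Ccl2 lay between 0.190 and 1.23 FPKM in the DMSO libraries, and Ccl7 was below 0 in 2 of the 4. Ccl12 stood at 309% with T/S/Z, 25.01% with T/S/Z/N, 48.6% with DMSO and 39.1% with Nec-1s alone, above the range of the markers in each. Of 4 tested fibroblast and endothelium markers in microglia, 3 were called higher and 1 lower (Pecam1, -0.95) with T/5z. For T/S/Z none was called higher and Pecam1 was lower (-1.13). The part of RNA from other cells in the microglial values was not tested. In these bulk samples, fewer cells of a type and less RNA per cell cannot be told apart.

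In astrocytes, T/S/Z raised Ccl2 and Ccl7 to among the most abundant transcripts and left Ccl12 low. Ccl2 levels were 3.76, 3.54 and 4.56 with DMSO and 11.82, 11.77 and 11.84 with T/S/Z, where it ranked between 2 and 4 among all genes by FPKM. Ccl7 went from 1.99, 1.89 and 2.43 to 9.14, 9.63 and 9.50, ranking between 49 and 76. The rises were 7.86 (SE 0.17, limma adjusted p = 3.13e-07) and 7.32 (SE 0.13, limma adjusted p = 1.73e-07). In mean FPKM, Ccl2 went from 15.2 ± 6.40 to 3590 ± 84.9 and Ccl7 from 3.36 ± 0.906 to 692 ± 117 (SD, n = 3). Among the 13842 tested genes, 6.39% were called higher, and the median change over all of them was -0.11.

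Ccl12 levels were 1.35, 1.29 and 1.70 with DMSO and 1.72, 1.75 and 2.04 with T/S/Z. The T/S/Z libraries lay above the DMSO libraries by a narrow margin. The difference of 0.39 (SE 0.10, limma adjusted p = 0.022) was below the fold limit. Its FPKM was 2.59 ± 0.452 beside 3590 for Ccl2, a ratio of Ccl2 to Ccl12 between 1179 and 1579 in these 3 libraries. In microglia with T/S/Z the same ratio lay between 6.38 and 15.03, on a table with another exon length for Ccl2 (813 bases, against 1138 in the astrocyte table).

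Nec-1s alone gave no call in astrocytes for any member. Ccl2 stood at 3.17, 3.37 and 3.26, lower than DMSO in 3 of 3 replicates by 0.69 on average (95% confidence interval -1.13 to -0.24, limma adjusted p = 0.85). The difference was -0.46 for Ccl7 and 0.14 for Ccl12. Of all genes 0.0144% were called, 2 genes, while 790 had an unadjusted p under 0.05.

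Adding Nec-1s to T/S/Z lowered Ccl2 and Ccl7 by less than the fold limit. Ccl2 stood at 11.25, 11.31 and 11.25, with no overlap with T/S/Z, a difference of -0.54 (SE 0.098, limma adjusted p = 0.024). Ccl7 stood at 8.93, 9.02 and 8.95, also without overlap, a difference of -0.46 (SE 0.11, limma adjusted p = 0.047). On the log2 scale, Nec-1s took back 6.93% ± 1.28 (SD, n = 3) of the rise of Ccl2 and 6.18% ± 2.86 of that of Ccl7. In linear FPKM the shares were 31.4% ± 3.48 and 26.7% ± 11.6. Against DMSO, T/S/Z/N was 7.32 (SE 0.19) higher for Ccl2 and 6.86 (SE 0.12) higher for Ccl7, the larger limma adjusted p being 8.69e-06, and 4.36% of genes were called higher. With ordinary per-gene variance neither passed (adjusted p = 0.071 and 0.065).

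Ccl12 moved the other way. With T/S/Z/N it stood at 3.45, 3.32 and 3.30, above every other astrocyte library. It was 1.52 (SE 0.12, limma adjusted p = 7.52e-04) higher than with T/S/Z, in 3 of 3 replicates, where 1.51% of genes were called higher. Against DMSO it was 1.91 (SE 0.12, limma adjusted p = 2.35e-04) higher. These values rest on about 27.0 to 36.3 reads per T/S/Z library and 105 to 115 per T/S/Z/N library. With ordinary per-gene variance, the adjusted p was 0.21 against T/S/Z and 0.097 against DMSO.

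Whether the response of Ccl12 to Nec-1s depended on the stimulus was tested after these values were seen. The Nec-1s effect after T/S/Z exceeded that without stimulus by 1.37 (SE 0.16, limma adjusted p = 0.0011) for Ccl12, in 3 of 3 replicates, and 1.76% of genes were called in that direction. The same difference was 0.14 for Ccl2 (95% confidence interval -0.41 to 0.70) and 0.01 for Ccl7 (-0.40 to 0.42).

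Markers of other cells rose with Ccl12 between T/S/Z and T/S/Z/N in the astrocyte libraries, but not between DMSO and T/S/Z, where the markers fell and Ccl12 did not. The 6 listed of 8 fibroblast and endothelium markers summed to between 527 and 537 FPKM with DMSO, between 97.9 and 108 with T/S/Z and between 428 and 433 with T/S/Z/N. All 6 were called lower with T/S/Z and all 6 higher with T/S/Z/N against T/S/Z, among them the collagen gene Col3a1 (-2.87 and 2.39) and Dcn, the proteoglycan decorin (-2.08 and 2.26). Microglia markers summed to between 147 and 156 FPKM, between 93.7 and 99.7 and between 128 and 138 in the same groups, with 9 of 15 called lower and then 4 of 15 called higher. Over all astrocyte genes 8.99% were called lower with T/S/Z and 1.51% higher when Nec-1s was added. Both sums were lower with T/S/Z/N than with DMSO, where Ccl12 was higher. Astrocyte markers summed to between 3040 and 3235 with T/S/Z and between 3061 and 3076 with T/S/Z/N, and none of 12 was called between them. The part of other cells in the Ccl12 values was not tested.

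**Figure D5:**
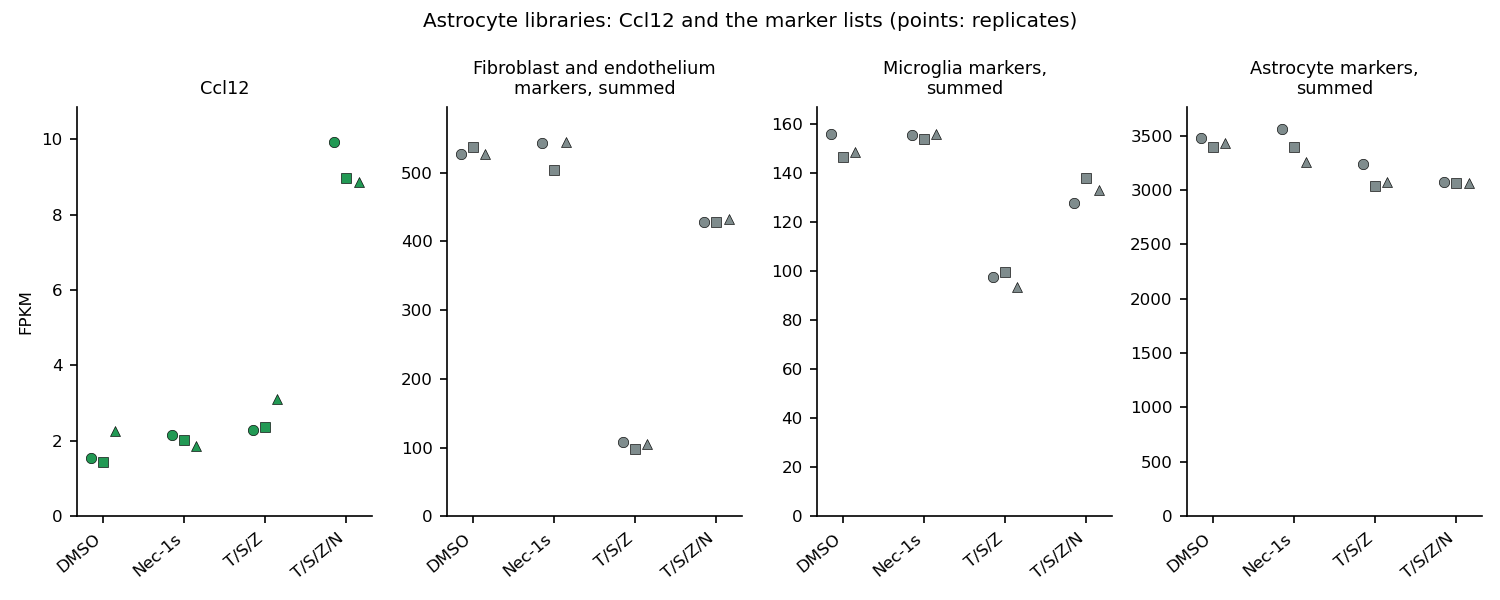
FPKM of Ccl12 and the summed FPKM of 3 marker lists in the 12 astrocyte libraries, by treatment, with symbols for replicates. Fibroblast and endothelium markers drop to about 97.9 to 108 with T/S/Z and return to 428 to 433 with T/S/Z/N, where Ccl12 reaches 8.86 to 9.91.

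The members were compared with each other within replicates. Of 39 such differences, none could reach 0.05, since the smallest exact 2-sided permutation p was 0.12 with 4 replicates and 0.25 with 3. In microglia the rise of Ccl2 exceeded that of Ccl12 by 3.25 ± 1.31 (SD) with T/5z and by 2.97 ± 0.259 with T/S/Z, in 4 of 4 replicates each. The rise of Ccl7 exceeded that of Ccl12 by 2.63 ± 0.223 under T/S/Z in 4 of 4 replicates. For T/5z it did so by 2.10 ± 1.78 in only 3 of 4, and in replicate 4 the difference was -0.06. Ccl2 rose more than Ccl7 by 1.15 ± 0.479 with T/5z and by 0.34 ± 0.209 with T/S/Z, again within replicates. That order holds on the scale with 1 added, where Ccl7 with DMSO lay near or below 0. As FPKM at the group mean, T/S/Z took Ccl2 from 0.775 to 65.6 and Ccl7 from 0.119 to 32.1, a larger ratio for Ccl7. In astrocytes the T/S/Z rise of Ccl2 exceeded that of Ccl12 by 7.47 ± 0.455, and that of Ccl7 exceeded it by 6.93 ± 0.303. The effect of Nec-1s after T/S/Z in astrocytes differed between Ccl2 and Ccl12 by -2.06 ± 0.225, and between Ccl2 and Ccl7 by -0.09 ± 0.261.

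Receptors of these ligands were low or changed with treatment. Ccr2 had mean levels between 0.07 and 0.27 in microglia and was too low to be tested, and it was not analysed here in astrocytes. Ccr1, which binds Ccl7, fell in microglia by 1.78 (SE 0.18) with T/5z and rose by 0.73 (SE 0.18) with T/S/Z, and Nec-1s lowered it by 1.27 (SE 0.17) after T/S/Z. Ccr3 rose by 0.69 (SE 0.099) with T/S/Z. The limma adjusted p of these was 0.0073 or lower. In astrocytes Ccr1 and the scavenging receptor Ackr1 were not called with T/S/Z (-0.42 and -0.44), and Ccr1 rose by 0.61 (SE 0.11, limma adjusted p = 0.021) when Nec-1s was added.

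Other CC chemokine genes of the same chromosome also responded. Of 6 tested, 3 were called higher with each stimulus, beside 11.1% (T/5z) and 12.2% (T/S/Z) of all genes. Ccl3 and Ccl4, the macrophage inflammatory proteins, rose by 3.09 and 3.03 with T/5z and by 6.59 and 6.88 with T/S/Z, and the changes with Nec-1s after T/S/Z were -5.34 and -5.56. Ccl8 fell by 0.97 with T/5z. In astrocytes 4 of 5 were called higher with T/S/Z (6.39% of all genes), led by Ccl5 (6.26) and Ccl3 (4.01). With Nec-1s 4 of 5 were called lower (1.59% of all genes), led by Ccl3 (-3.29), and the remaining gene, Ccl8, was called higher (1.11). In astrocytes Ccl8 thus had the direction of Ccl12 with Nec-1s, and in microglia it did not: there it rose with Nec-1s after T/5z (0.68) while Ccl12 fell.

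Other genes of monocyte recruitment rose with the members. In microglia all 6 tested were called higher with each stimulus (all genes: 11.1% for T/5z, 12.2% for T/S/Z), led by the adhesion molecules Icam1 (4.70 for T/5z, 4.22 for T/S/Z) and Vcam1 (3.57 and 2.46, in that order). Nec-1s lowered 6 of 6 after T/5z, beside 4.52% of all genes, and 4 of 6 after T/S/Z, beside 6.72%. In microglia Csf2 and Sele reached the filter only in libraries with a stimulus and no Nec-1s (DMSO at most 0.13 and 0.11). Their calls in both directions were thus partly set by the filter. In astrocytes all 8 were called higher with T/S/Z, led by the growth factor Csf2 (4.23) and E-selectin, Sele (4.06), where 6.39% of all genes were called higher. A gene low with DMSO could enter this count through its stimulated libraries. When Nec-1s was added 3 of 8 were called lower, with Csf2 at -1.95, beside 1.59% of all genes.

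Among 17 tested transcription factors and their inhibitors in microglia, 9 were called higher and 1 lower with T/5z, and 13 and 1 with T/S/Z. Over all genes 11.1% were called higher and 13.3% lower with T/5z, and 12.2% and 17.5% under T/S/Z. The largest called rise was that of Nfkbia, the inhibitor of NF-kB that NF-kB itself induces, at 3.27 and 3.71. Nec-1s lowered 3 of them when added to T/5z. When added to T/S/Z it lowered 6, most of all Atf3 (-3.35), and raised 1, Fos (0.60). Nec-1s lowered 4.52% of all genes in the first case and 6.72% in the second, where it raised 5.35%. In astrocytes 15 of 18 were called higher with T/S/Z, Nfkbia by 4.55, and Nec-1s lowered 4 and again raised Fos (0.67), beside 6.39% of all genes higher with T/S/Z, and 1.59% lower and 1.51% higher with Nec-1s. The median change over this list was 1.66 in astrocytes with T/S/Z, beside -0.11 over all genes.

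Genes of RNA decay matter for chemokine transcripts, many of which are unstable. Zc3h12a, the RNase Regnase-1, changed by 1.57 in microglia and 2.43 in astrocytes under T/S/Z, and by -2.22 and -1.13 when Nec-1s was added. Zfp36, tristetraprolin, rose by 2.46 and 1.54. Zfp36l2, of the same family as Zfp36, went the other way in microglia, at -1.79 with T/5z and -2.36 under T/S/Z. Of 8 such genes in microglia, 1 was called higher and 2 lower with T/5z, and 3 higher and 1 lower under T/S/Z, where the list median was -0.03. Of all microglial genes, T/5z had 11.1% called higher and 13.3% lower, and T/S/Z had 12.2% and 17.5%. In astrocytes 3 of 8 were called higher and none lower, beside the 6.39% of all genes called higher. Among 20 genes of TNF receptor and RIPK1 signalling, microglia had 7 called higher after T/5z, and for T/S/Z the number was 6 in microglia and 7 in astrocytes. Over all genes the shares called higher were 11.1%, 12.2% and 6.39% in the same order. In each of these comparisons 1 gene of the list was called lower, the TAK1 partner Tab1 in microglia (-0.68 for T/5z, -1.06 for T/S/Z) and the kinase Ripk3 in astrocytes (-0.75). The shares of all genes called lower were 13.3%, 17.5% and 8.99%, each above 1 of 20. The deubiquitinase Tnfaip3 rose most among them, by 4.55 in microglia treated with T/S/Z and by 4.01 in astrocytes.

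The genes most like each member were found by the root mean square difference between mean log2 changes from DMSO, over 5 treatments in microglia and 3 in astrocytes. In microglia Ccl2 was closest to Cxcl1 (0.60), followed by Ccl7 (0.64), Nlrp3, Tnfaip3 and Ch25h. Ccl7 was closest to Ccrl2 (0.49), then Tnfaip3, Cxcl1, Maff and Gem. Ccl12 was closest to Trim13 (0.13), then Dusp16, Abtb2, Ets2 and C9orf72, none of which encodes a chemokine. In astrocytes Ccl2 was closest to Cxcl10 (0.32), then Ccl7 (0.43), Gbp5, Cxcl1 and Ccl5. Ccl7 was closest to Cxcl10 (0.26), then Ccl2, Gbp5, Ccl5 and Cxcl1. Ccl12 was closest to Tnip3 (0.21), Ccl8 (0.23), Olr1, Rgs4 and Ctsc. All changes within a table share the DMSO libraries, so likeness is a description.

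The order of group means was the same for Ccl2 and Ccl7 in each table. In microglia it ran from T/S/Z through T/5z, T/5z/N, T/S/Z/N and DMSO to Nec-1s. For Ccl2, T/5z did not overlap its neighbour T/5z/N, nor did T/S/Z/N overlap DMSO, and the other neighbours overlapped. For Ccl7 only the step to DMSO had no overlap. Of all genes 4.52% were called lower with T/5z/N than with T/5z, and 6.20% higher with T/S/Z/N than with DMSO. For Ccl12 the order had T/S/Z/N before T/5z/N, and only T/5z and T/S/Z/N did not overlap among neighbours. In astrocytes Ccl2 and Ccl7 ran from T/S/Z through T/S/Z/N and DMSO to Nec-1s with no overlap at any step. For these steps 1.59%, 4.36% and 0.0144% of all genes were called in the same direction, and at the last step, from DMSO to Nec-1s, neither member passed the test, so the lack of overlap between 3 and 3 libraries is no sign of a difference on its own. Ccl12 ran from T/S/Z/N through T/S/Z and Nec-1s to DMSO, and only Nec-1s and DMSO overlapped. Of all genes 1.51% were called higher with T/S/Z/N than with T/S/Z, and the step from T/S/Z to Nec-1s was not tested.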

How the data were processed

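mRNA of cultured mouse microglia and astrocytes was sequenced. OmicSoft Array Studio was the authors' pipeline, and the deposited values are log2(FPKM + 1), scaled to a common 75th percentile (4.11 to 4.16 in microglia, 4.73 to 4.74 in astrocytes). The aligner is not given in the sources used here. In the microglial table each gene's mean over treatments in replicates 1 to 3 equalled that of replicate 4 (largest difference 6.67e-05), a step the study's methods do not describe. The deposited annotation gave exon lengths and coordinates that match GRCm38. It marked Ccl2 as confounded in both tables, a mark on 50.9% of the genes listed in microglia and 56.4% in astrocytes. In GENCODE M21 the gene Gm17268 overlaps Ccl2 on the other strand and was not analysed here. The astrocyte libraries were strand-specific and strandedness is not stated for microglia, so reads of such a partner cannot be told apart there.

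Genes with a log2 value of at least 1 in 4 (microglia) or 3 (astrocytes) libraries were tested, 10524 and 13842 genes. These libraries could be of any group, so a gene low without stimulus could enter through stimulated libraries, which favours a call. Linear models (limma 3.58.1, R 4.3.3, eBayes with trend) held the 2 compared groups and the replicate number as a block, as the study paired its samples. The difference between Nec-1s effects used 4 groups. P-values are 2-sided and adjusted by Benjamini-Hochberg over all tested genes, and a call needs an adjusted p under 0.05 and a fold over 1.5. The fold is on the scale with 1 added, which understates changes of low genes. Same-numbered astrocyte libraries correlated between -0.14 and 0.41 after group means were removed, so the data do not show that the numbers pair these samples. In microglia this check is void, because the equal replicate means remove any shared replicate effect. On simulated data with changes of 1 log2 unit, 97% were recovered for microglia T/S/Z (10524 genes) and 73% for astrocytes T/S/Z (13842 genes).

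Reads per library were estimated from the steps of low values of single-transcript genes, of which a median of 70.4% (astrocytes) and 82.6% (microglial replicate 4) lay within 0.1 of a whole read. Multiples of a read and of a fragment could not be told apart. Members, lists and tests were chosen with earlier results of these data known. The receptors (1 is not reported here), the 5 nearest genes per member and at most the 2 largest called rises and falls of each other list were eligible to be named. Promoter sequences are from RefSeq (GRCm38.p6), which held 1 of the 3 members, and coding exons from GENCODE M21. Alternatives were another constant, other filters, no block, median centring, quantile normalization, all groups in 1 fit, other variance estimates and leaving out each replicate. No column lacked a sample.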

Additional observations from a re-analysis of the deposited data

Results flagged for a closer look

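Adding Nec-1s to T/S/Z moved Ccl12 by -1.42 on the log2 scale in microglia, lower in 4 of 4 replicates, and by 1.52 in astrocytes, higher in 3 of 3. The difference between the cell types was not tested, because the tables were normalized separately and came from different providers.

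The Nec-1s effect on Ccl7 in microglia was 1.87 less negative after T/5z than after T/S/Z (limma adjusted p = 0.046, 4 of 4 replicates). The call was lost without replicate 1, 3 or 4 (1.19 without replicate 4), with 5 added before the log, with quantile normalization, with no filter, with no trend and with ordinary per-gene variance. In astrocytes the Nec-1s effect on Ccl12 was 1.37 more positive after T/S/Z than without stimulus (limma adjusted p = 0.0011, 3 of 3 replicates), a test chosen after the data were seen. No microglial group of 4 held a library of a member that stood apart by Dixon's test. Groups of 3 were not tested.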

How the results depend on the processing

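Of 545 alternatives over 45 member comparisons, 515 kept the side of the limits, 22 lost a call and 8 gained one. A call was present before or after a change of sign in 0 of them. Changes of sign between differences that were not called, as when a replicate is left out, were not counted. In 28 comparisons no alternative changed the call. The causes of the changes were not tested. Values are log2 differences. Without the replicate block, and with all groups in 1 fit, Ccl7 in microglia with T/S/Z against T/5z (1.33) passed, and the block changed no other member's call. In microglia the replicate means over treatments had been set equal beforehand, so leaving out the block says little there about the pairing.

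With 5 added before the log, microglial Ccl12 in T/5z/N against T/5z was -0.48, Ccl7 and Ccl12 in T/S/Z/N against DMSO were 0.43 and 0.32, and Ccl12 in T/S/Z against T/5z was 0.50, all below the fold limit. The Ccl7 difference between Nec-1s effects was 1.36 there, 1.71 with quantile normalization, and 1.87 with no filter, with no trend or with ordinary per-gene variance, and lost its call in each. Ordinary variance also ended the calls, at unchanged values, of microglial Ccl12 in T/5z/N against T/5z (-1.04), Ccl2 and Ccl7 in T/5z/N against DMSO (2.47 and 1.92), Ccl2, Ccl7 and Ccl12 in T/S/Z/N against DMSO (1.89, 1.38 and 0.83), astrocyte Ccl12 in T/S/Z/N against T/S/Z (1.52), and astrocyte Ccl2, Ccl7 and Ccl12 in T/S/Z/N against DMSO (7.32, 6.86 and 1.91).

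Leaving out each replicate gave, in microglia, 0.27 to 0.60 for Ccl12 in T/5z/N against DMSO, 0.56 to 1.85 for Ccl7 in T/S/Z against T/5z, 1.19 to 2.22 for the Ccl7 difference between Nec-1s effects, and for T/S/Z/N against T/5z/N -0.72 to -0.50 (Ccl2), -0.70 to -0.37 (Ccl7) and 0.27 to 0.61 (Ccl12).

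Counts of called genes fell by over 1.5 times with 5 added and when the mean log2 value had to reach 3, from 2563 to 1485 and 1463 in microglia with T/5z, from 3118 to 1633 and 1705 with T/S/Z, from 1270 to 514 and 628 for Nec-1s after T/S/Z and from 754 to 314 and 385 for Nec-1s after T/5z. In astrocytes they fell from 2130 to 985 and 1094 with T/S/Z (281 with ordinary variance), from 1257 to 542 and 639 for T/S/Z/N against DMSO (50 with ordinary variance), and from 429 to 180 and 225 for Nec-1s after T/S/Z (3 with ordinary variance, 274 without replicate 2 and 761 without replicate 3). For Nec-1s alone in astrocytes the 2 genes became between 0 and 16. Low reads limit Ccl12 in astrocytes and all members in microglial controls.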
